A study of Mus musculus with 6 samples.

Results

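Semaphorins, plexins, ephrins and Eph receptors are the guidance proteins examined here in dermal fibroblasts. Members were all probe sets of the array whose platform annotation names a single gene with a symbol that begins with Sema, Plxn, Efna or Efnb, or with Epha or Ephb and a number. This gave 116 of the 34945 probe sets that name 1 gene, for 51 of 18193 genes. They comprise 20 semaphorins and 8 ephrins as ligands, 9 plexins and 13 Eph receptors, and 1 antisense transcript, Plxna4os1, which the name rule also takes and which is counted with neither ligands nor receptors. The cells came from the ears of male mice 4 months old and were sorted for the surface receptor PDGFRα, a marker of fibroblasts. Cancer-associated fibroblasts (CAF) came from K14-HPV16 mice with visible dysplasia of the ear; these mice carry genes of human papillomavirus 16 under the keratin 14 promoter, which is active in basal keratinocytes. Normal dermal fibroblasts (NDF) were taken from the ears of non-transgenic FVB/n mice of the same age. Each group had 3 arrays, and the labels name 15 mice per genotype without saying which mice gave which array, so p-values measure only the spread between these arrays. The series title asks how fibroblasts of early neoplastic skin come to promote inflammation.

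Semaphorins were first known as cues that repel growing axons and act through plexins, with neuropilins as co-receptors for most of the secreted class 3. Ephrins are held on the cell surface, and on contact between cells they activate the Eph receptors, a family of receptor tyrosine kinases, while the ephrin can signal back into its own cell. In skin and tumours both systems are known for effects on vessel growth, on the movement of leukocytes and on cell sorting and adhesion.

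One array stood apart. CAF replicate 3 correlated with the other arrays at 0.914 to 0.932 over all probe sets, where all other pairs lay between 0.96 and 0.983. It held the highest or the lowest of the 6 values for 32 of 51 members (62.7%) and for 61.5% of all genes. Many differences were of another size, and some of another sign, without it, and for several members that value is given beside the result. The sort marker Pdgfra was at 12.30 to 12.60 in NDF and 12.45 to 12.66 in CAF. Of 16 dermal fibroblast genes 0 passed the limma test, and their median difference was -0.24. An unadjusted p under 0.05 was found for 1 of them with a higher and 3 with a lower CAF mean. The arrays also held signal of other cells, and more of it in CAF. On the log2 scale the summed intensity of 17 macrophage and dendritic cell genes was 9.51 to 10.23 in NDF and 11.80 to 13.27 in CAF, and that of 19 endothelial genes was 12.74 to 12.82 and 13.22 to 13.40. For 11 neutrophil genes it was 7.61 to 9.58 and 13.03 to 14.21, and for 21 keratinocyte genes 13.37 to 13.51 and 14.02 to 15.01. The endothelial sum was weighted to its brightest gene, Pdpn, whose groups overlapped at means of 12.39 in NDF and 12.59 in CAF. The median difference of those 19 genes was 1.45. The keratinocyte gene Krt14 itself was at a mean of 9.39 in NDF and 11.58 in CAF (limma adjusted p = 0.115). Of 16 immediate-early genes, which respond to handling of cells as well as to signals, 5 passed the test and were higher, and their median difference was 1.66. The part of these other cells and genes in the members' differences was not tested. In bulk samples such as these, fewer cells of a type and less RNA per cell cannot be told apart.

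No member passed the test for a difference between CAF and NDF. By limma, at a Benjamini-Hochberg adjusted p under 0.05 over all genes, 0 of 51 members were higher and 0 were lower in CAF, where 0.489% of all genes were called higher and 0.0275% lower (0.517% in either direction). Without adjustment, p was under 0.05 for 6 members with higher CAF values, beside 4.93% of all genes, and for 4 with lower values, beside 4.02% (8.95% of all genes in either direction). In 11 members the values of the groups were fully separated, beside 15.4% of all genes. In 6 of these all CAF arrays lay above (11.8% of members, 6.78% of all genes) and in 5 below (9.8% of members, 8.66% of all genes). A difference of at least 1 log2 unit in either direction was seen for 6 members, beside 6.39% of all genes, and all of these were ligands. Across the 28 ligands the median difference was -0.03 and across the 22 receptors 0.09, and over all genes it was -0.04. Without CAF replicate 3 the receptor median was -0.06 and the ligand median -0.31. With each probe set tested on its own, 0 of 116 member probe sets passed in either direction, where 0.206% of all probe sets were called higher and 0.02% lower (0.226% together). Without adjustment, p was under 0.05 for 6 member probe sets with higher values (4.08% of all probe sets) and 7 with lower values (3.69%, together 7.78%). Groups were fully separated for 7 with higher values (5.92% of all) and 10 with lower values (7.98%, together 13.9%), and 8 differed by at least 1 log2 unit, beside 5.56% of all probe sets.

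**Figure D1:**
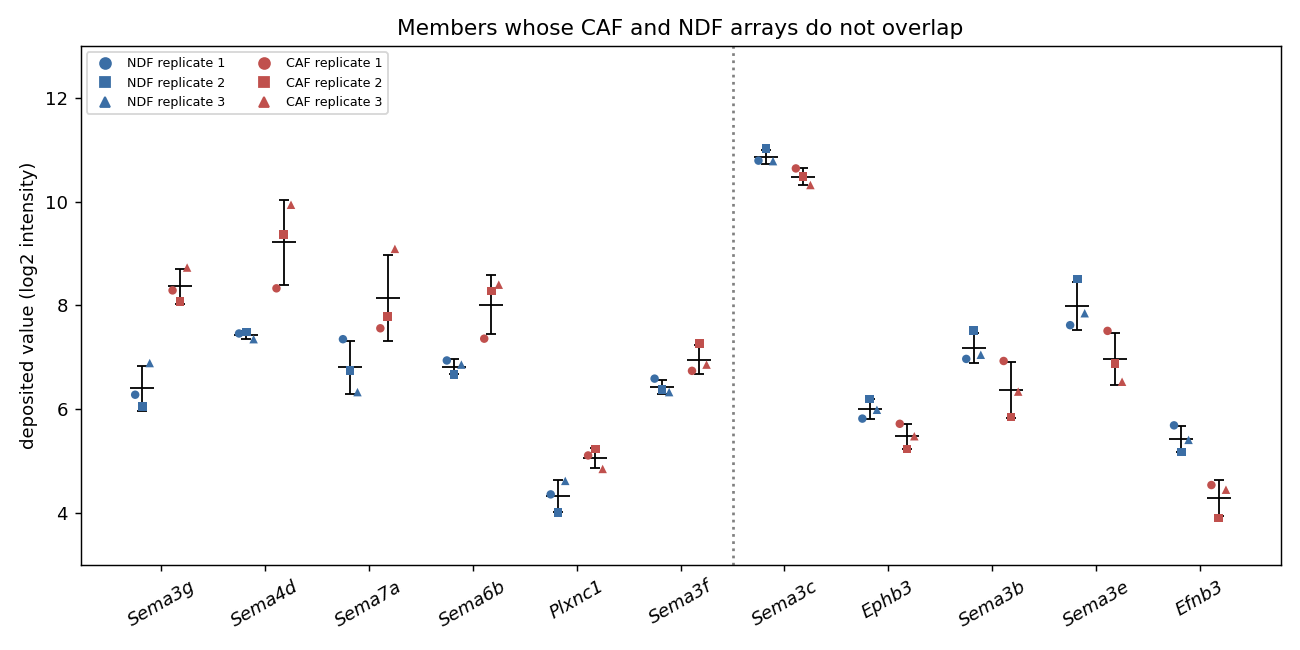
Deposited log2 intensity on each array for the 11 members whose CAF and NDF arrays do not overlap, with NDF in blue and CAF in red, marker shapes for the replicates, and the mean ± SD of each group in black. To the left of the dotted line the 6 members with higher CAF values run from Sema3g to Sema3f, and to the right the 5 with lower CAF values run to Efnb3. No member in the plot passed the limma test over all genes.

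Sema3g had the smallest adjusted p of all members and missed the threshold narrowly. It encodes a secreted class 3 semaphorin that acts through the co-receptor neuropilin 2 and is known from vessel endothelium. It was at 6.28, 6.05 and 6.89 on NDF arrays 1 to 3 and at 8.29, 8.08 and 8.73 on CAF arrays 1 to 3 (log2 intensity). All CAF arrays were therefore more than 1 log2 unit above any NDF array. The mean was 6.40 ± 0.43 in NDF and 8.37 ± 0.33 in CAF (SD, n = 3). They differed by 1.96 ± 0.29 (SE), which is 3.90-fold, with a 95% interval of 1.28 to 2.64 (limma adjusted p = 0.0505). The gene has a single probe set. Under the other ways of processing the adjusted p ran down to 0.0178, with array quality weights, and the threshold was passed in 6 of them (0.043 with a filter at the median, 0.0463 at the 25th percentile, 0.0338 with the mean of a gene's probe sets, 0.0485 without cross-matching probe sets, 0.0471 with an intensity trend). It was not passed with quantile normalisation (0.0644), cyclic loess (0.0565), equal array medians (0.0503) or a robust prior (0.0538). Nor was it passed with a replicate block (0.08) or with CAF replicate 3 and NDF replicate 1 both left out (0.109). With any 1 array left out it was not passed, at adjusted p = 0.0542 to 0.213 and differences of 1.78 to 2.20.

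Its co-receptor gene Nrp2 was at 9.49, 8.97 and 9.19 in NDF and at 9.34, 9.39 and 9.44 in CAF, a difference of 0.17 (limma adjusted p = 0.897). The groups overlapped. On the same arrays 15 of 19 genes of blood and lymphatic endothelium had all CAF values above all NDF values, with a median difference of 1.45. The lymphatic receptor gene Lyve1 passed the test (3.38, limma adjusted p = 0.0218), while the junction gene Cdh5 differed by 0.05. The mean level of these 19 genes was 6.86, 7.71 and 7.06 on CAF arrays 1 to 3, so the array with the highest endothelial level, CAF replicate 2, had the lowest Sema3g value of the 3. The part of endothelial RNA in the Sema3g difference was not tested, and the order of 3 arrays cannot decide it.

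**Figure D2:**
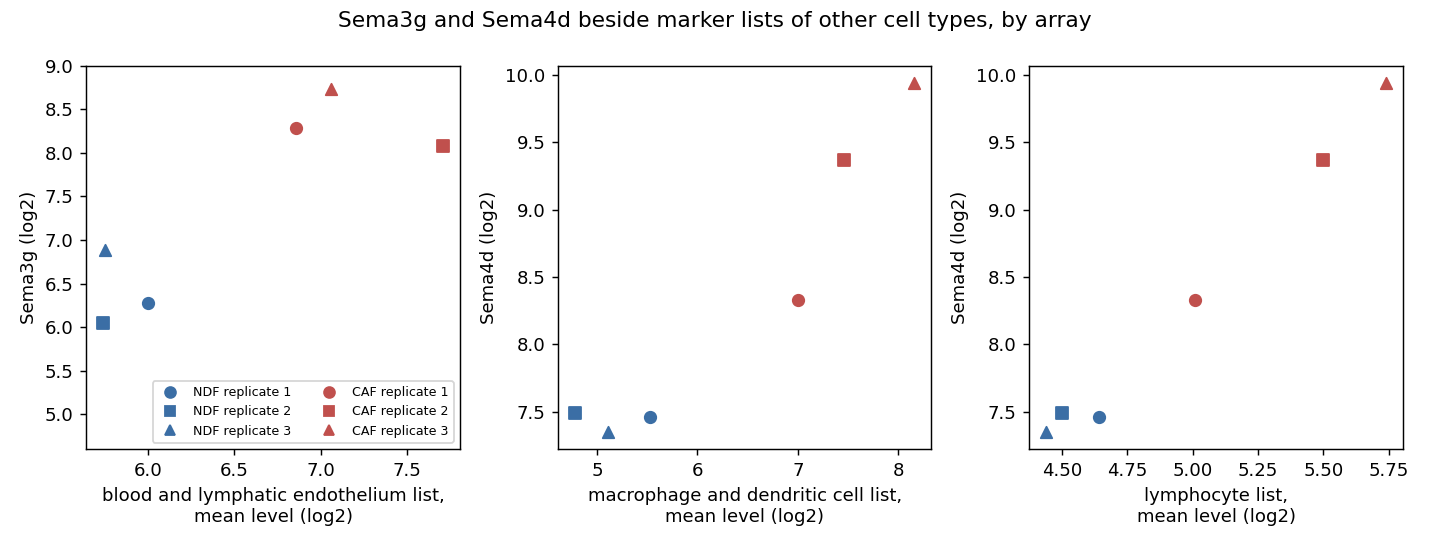
Each point is 1 array, with NDF in blue and CAF in red. The left panel sets Sema3g against the mean log2 level of the 19 endothelial genes, and the other panels set Sema4d against the mean levels of 17 macrophage and dendritic cell genes and of 11 lymphocyte genes. CAF arrays lie at the upper right in all panels. Within CAF, Sema4d (8.33, 9.37 and 9.94 on CAF arrays 1 to 3) and both lists plotted with it have the same order of arrays. The Schwann cell and immediate-early lists, not plotted, have that order too, and the neutrophil and mast cell lists, not plotted, do not. Sema3g and the endothelial list differ in order. The order of 3 arrays is given as a description only.

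The transmembrane class 4 semaphorins held the next largest positive difference. Sema4d, also known as CD100, is carried by T cells and other leukocytes and binds plexin B1. It was at 7.46, 7.49 and 7.35 in NDF and at 8.33, 9.37 and 9.94 in CAF. The NDF arrays were close together and the CAF arrays spread over more than 1 log2 unit. The means were 7.43 ± 0.07 and 9.21 ± 0.82 (SD), and the difference of 1.78 ± 0.40 (SE) did not pass the test (limma adjusted p = 0.161). Without CAF replicate 1, the lowest CAF array, the difference was 2.22 and the adjusted p 0.0401. The other 2 probe sets of Sema4d differed by -0.03 and -0.07, and both lay below the median probe set of the arrays (4.84). The mean level of the macrophage and dendritic cell list was at most 5.53 in NDF, and in CAF it was lowest on replicate 1, 7.46 on replicate 2 and 8.16 on replicate 3. That of the lymphocyte list was at most 4.64 in NDF and was 5.01, 5.50 and 5.74 on CAF arrays 1 to 3. The pan-leukocyte gene Ptprc differed by 4.33 (limma adjusted p = 0.0197) and the T cell gene Cd3e by 4.05 (limma adjusted p = 0.0783). Cd3e had the largest difference of the 11 lymphocyte genes, whose median was 0.20. Of the 11, 4 had all CAF values above all NDF values, while Cd4 and Cd8a differed by -0.01 and -0.03. Thy1, the brightest of them and also on the dermal fibroblast list, differed by 0.21. Other leukocyte lists had another order, at 6.79, 7.99 and 7.49 for neutrophil genes and 5.29, 6.25 and 4.37 for mast cell genes on CAF arrays 1 to 3. The Schwann cell and immediate-early lists had the same order as Sema4d, at 6.52, 6.56 and 7.05 and at 10.57, 10.62 and 10.64. What part of the Sema4d difference goes with leukocyte RNA was not tested, and the order of 3 arrays cannot decide it.

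Sema4a, a regulator of T cell activation, gave similar differences in both of its probe sets but overlapped between groups. The probe set used was at 5.65, 5.66 and 6.36 in NDF and at 6.84, 7.97 and 5.85 in CAF, a difference of 1.00 ± 0.53 (SE, limma adjusted p = 0.677). The other probe set differed by 1.06. CAF replicate 3 was low, within the NDF range. The difference was 1.51 without that array and 0.46 without CAF replicate 2, the highest. The remaining class 4 genes Sema4b, Sema4c, Sema4f and Sema4g differed by 0.18, 0.38, -0.88 and -0.18, and each had overlapping groups. The value for Sema4f turned on NDF replicate 1, at 6.69 where the other 5 arrays lay between 4.08 and 4.68, and its second probe set differed by -0.09.

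Sema7a and its receptor gene Plxnc1 both had higher values on every CAF array than on any NDF array. Sema7a is anchored to the membrane by a lipid and acts on plexin C1 and on integrins. It was at 7.35, 6.75 and 6.33 in NDF and at 7.56, 7.79 and 9.09 in CAF, with the highest NDF array close below the lowest CAF array. The difference was 1.34 ± 0.46 (SE, limma adjusted p = 0.429), and 0.86 without CAF replicate 3. The second probe set of the gene differed by 0.34. Plxnc1 was at 4.36, 4.01 and 4.62 in NDF and at 5.11, 5.23 and 4.85 in CAF, a difference of 0.73 ± 0.22 (SE, limma adjusted p = 0.348). The median difference over the 5 further probe sets of Plxnc1 was 0.03. The integrin subunit gene Itgb1 was at 9.73 to 10.16 in NDF and 9.50 to 10.07 in CAF (-0.18, limma adjusted p = 0.909). A further integrin subunit gene, Itga1, had all CAF arrays above all NDF arrays (1.21, limma adjusted p = 0.118).

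Among the transmembrane class 6 semaphorins, ligands of A-type plexins, Sema6b lay higher and Sema6a lower in CAF. Sema6b was at 6.94, 6.67 and 6.86 in NDF and at 7.36, 8.28 and 8.40 in CAF, without overlap. The difference was 1.19 ± 0.30 (SE, limma adjusted p = 0.231), and the gene has 1 probe set. Without CAF replicate 1 it was 1.51 (adjusted p = 0.0625). Sema6a was at 7.74, 7.86 and 8.52 in NDF and at 7.42, 7.75 and 7.27 in CAF, where 1 CAF array reached the NDF range. It differed by -0.56 ± 0.27 (SE, limma adjusted p = 0.628). Sema6c and Sema6d differed by -0.01 and -0.06, and the interval for Sema6d was -0.49 to 0.37.

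In class 3, 5 of 7 genes had a difference below 0, as had 10100 of all 18193 genes, and none of the 7 passed the test. Among the 5, Sema3a differed by only -0.09 and Sema3d by -0.00. Sema3e, which binds plexin D1 directly and repels endothelial cells, was at 7.62, 8.51 and 7.85 in NDF and at 7.51, 6.88 and 6.53 in CAF. The groups did not overlap, although CAF replicate 1 lay close to NDF replicate 1. The difference was -1.02 ± 0.34 (SE, limma adjusted p = 0.409), and the 3 other probe sets had a median of -0.50. Its receptor gene Plxnd1, which is prominent in endothelium, was at 5.25, 5.39 and 5.65 in NDF and at 5.60, 5.51 and 6.34 in CAF, a difference of 0.39 (limma adjusted p = 0.797) that was 0.13 without CAF replicate 3.

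Sema3b, a semaphorin known as a candidate tumour suppressor, was at 6.97, 7.52 and 7.05 in NDF and at 6.93, 5.85 and 6.34 in CAF. It differed by -0.81 ± 0.31 (SE, limma adjusted p = 0.507), and its other 2 probe sets, both with overlapping groups, by -0.04 and -0.91. Sema3c was at 10.79, 11.02 and 10.78 in NDF and at 10.64, 10.48 and 10.32 in CAF, a difference of -0.38 ± 0.18 (SE, limma adjusted p = 0.624). Its second, dimmer probe set gave -1.57, with CAF replicate 3 at 4.43 where CAF replicates 1 and 2 were at 7.22 and 6.37. Both probe sets had all CAF arrays below all NDF arrays. Sema3f, another neuropilin 2 ligand, ran the other way, at 6.59, 6.38 and 6.33 in NDF and 6.74, 7.27 and 6.86 in CAF (0.52 ± 0.21, SE, limma adjusted p = 0.517). Its probe set is of the kind that can match other transcripts, and the median over its 2 further probe sets was 0.18.

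For Sema3a, the founding member of the class, the arrays of a group disagreed. NDF lay at 8.51, 8.41 and 8.42, whereas CAF was lower on 2 arrays, at 7.85 and 7.94, and higher on replicate 3, at 9.28. The difference was -0.09 (limma adjusted p = 0.981), and -0.55 without CAF replicate 3. Sema3d differed by less than 0.01, with an interval of -0.61 to 0.61. In class 5, Sema5a was at 7.45, 6.38 and 6.50 in NDF and at 6.67, 5.87 and 5.44 in CAF (-0.78, limma adjusted p = 0.679). Its difference was -0.44 without NDF replicate 1 and -0.50 without CAF replicate 3. Sema5b differed by -0.22 (limma adjusted p = 0.862) with both means under the median probe set.

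**Figure D3:**
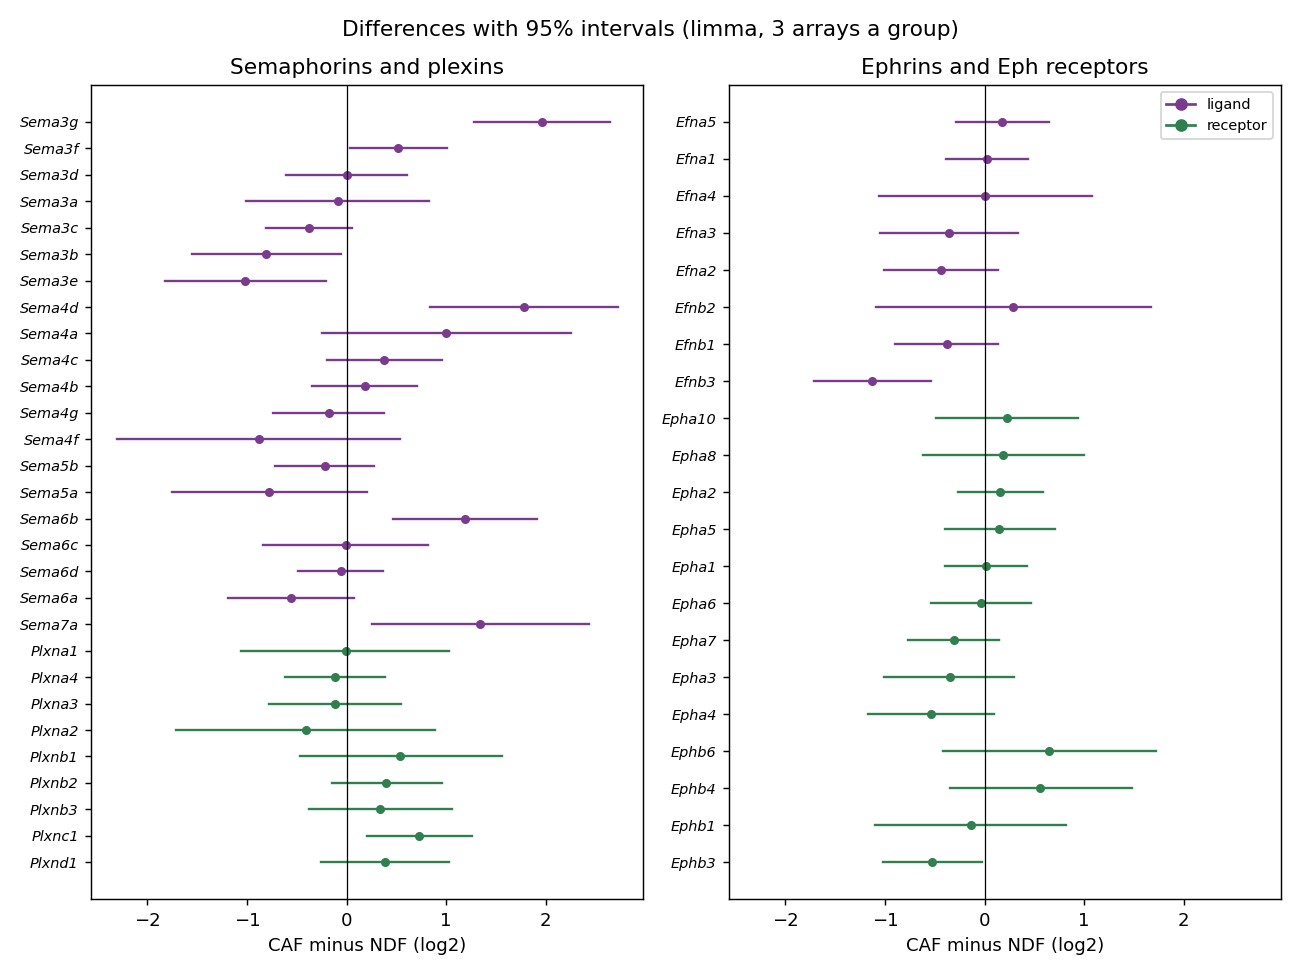
Points give the difference of CAF minus NDF on the log2 scale for 50 members, and lines its 95% interval from limma, with ligands in purple, receptors in green and genes grouped by family. Positive values are higher in CAF. The widest departures from 0 are the semaphorin genes Sema3g at 1.96 and Sema4d at 1.78 above it and the ephrin gene Efnb3 at -1.13 below it, and no receptor reaches a size of 1.

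Plexin genes differed by -0.41 to 0.73. In the B class, Plxnb1 encodes plexin B1, which binds Sema4d. It was at 5.29, 5.89 and 5.54 in NDF and at 5.52, 5.76 and 7.09 in CAF. The difference of 0.54 (limma adjusted p = 0.825) came with a single high array, CAF replicate 3, and was 0.06 without it. Plxnb2 was at 6.46, 6.47 and 6.17 in NDF and at 6.70, 6.46 and 7.16 in CAF (0.40, limma adjusted p = 0.724), and its difference was 0.21 without CAF replicate 3. Plxnb3 lay under the median probe set in both groups. The 4 A-type plexins differed by -0.41 to -0.01, and all had overlapping groups. Plxna2 was at 7.44, 7.54 and 6.32 in NDF and at 6.93, 7.52 and 5.62 in CAF, so its spread within each group exceeded its difference of -0.41 (limma adjusted p = 0.916). Without CAF replicate 3 that difference was 0.12. Plxna4 was under the median probe set in both groups, at -0.12 (limma adjusted p = 0.946).

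**Figure D4:**
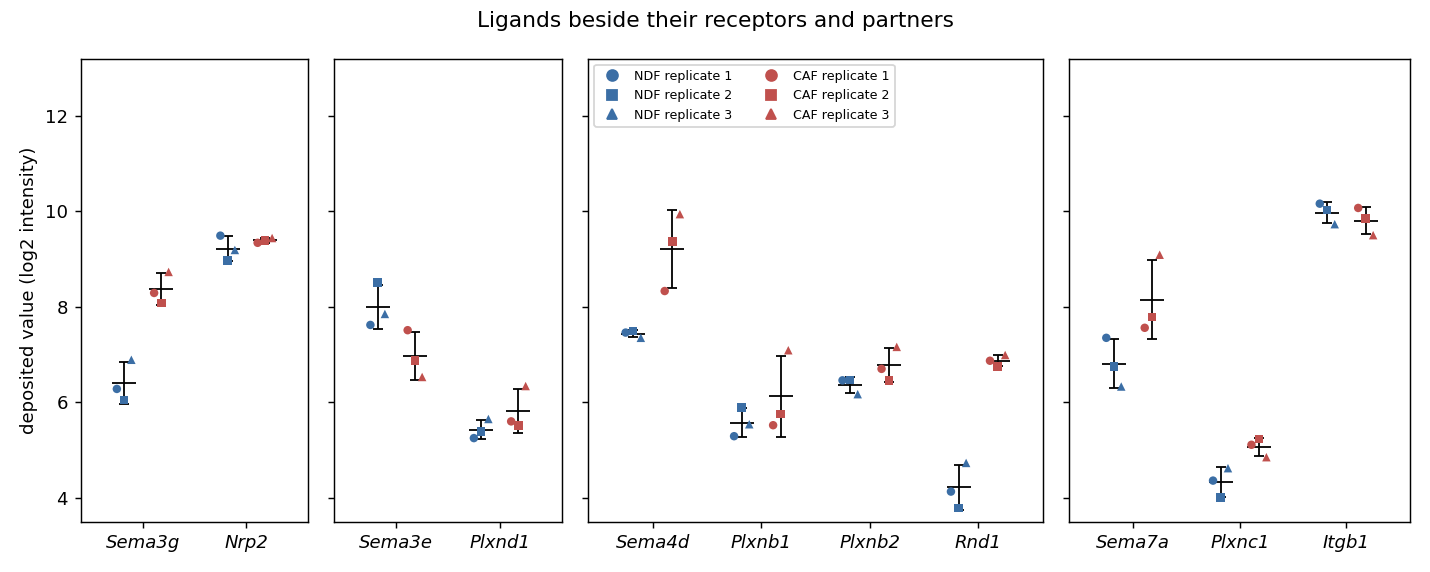
Log2 intensity on each array for 4 sets of ligands with their receptors or partners, with NDF in blue, CAF in red and the mean ± SD in black. The ligand genes Sema3g, Sema4d and Sema7a, the receptor gene Plxnc1 and the plexin-binding GTPase gene Rnd1 have all CAF arrays above all NDF arrays. The ligand gene Sema3e has all CAF arrays below all NDF arrays, whereas Nrp2, Plxnd1, Plxnb1, Plxnb2 and Itgb1 overlap. Itga1 is not plotted. Heights of different genes come from different probe sets and are not compared.

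Of the partners of semaphorins and plexins, 1 of 30 measured genes passed the test and was higher, and 0 were lower. It was Rnd1, a small GTPase that binds the cytoplasmic part of plexins. Rnd1 was at 4.13, 3.79 and 4.73 in NDF and at 6.87, 6.75 and 6.99 in CAF. The CAF arrays were close together and lay more than 2 log2 units above any NDF array. Its level rose by 2.66 ± 0.27 (SE), from 4.22 ± 0.48 to 6.87 ± 0.12 (SD), with a limma adjusted p of 0.0186 on its 1 probe set. The NDF mean lay under the median probe set (4.84). The call was kept without CAF replicate 1 or 3. It was lost without NDF replicate 1, 2 or 3 or CAF replicate 2, at adjusted p = 0.105, 0.0879, 0.051 and 0.0548, with differences of 2.44 to 2.91. It was also lost with a replicate block and with CAF replicate 3 and NDF replicate 1 both left out. On the same arrays the mean level of the 16 immediate-early genes was 9.13 to 9.37 in NDF and 10.57 to 10.64 in CAF, and its part in the Rnd1 difference was not tested. The median over the 30 was -0.16. Without adjustment, p was under 0.05 for 4 of them with higher and 1 with lower values, beside 4.93% and 4.02% of all genes.

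The next genes of this list by p were Itga1, an integrin subunit of collagen receptors, and L1cam, an adhesion molecule that joins the Sema3a receptor complex. Itga1 was at 9.89, 10.15 and 10.39 in NDF and at 10.99, 11.51 and 11.56 in CAF (1.21 ± 0.24, SE, limma adjusted p = 0.118). L1cam was at 6.11, 4.71 and 5.60 in NDF and at 6.24, 6.47 and 6.81 in CAF (1.03, limma adjusted p = 0.458; 0.65 without NDF replicate 2). Nrp1, the co-receptor of Sema3a, had nearly equal values, at 11.49 to 11.66 in NDF and 11.60 to 11.98 in CAF, with a difference of 0.19 (limma adjusted p = 0.863).

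Of the 8 ephrins and 13 Eph receptors 0 passed the limma test, beside 0.517% of all genes. An unadjusted p under 0.05 was found for 1 of each, beside 8.95% of all genes. The ephrin was Efnb3, a transmembrane ephrin best known as a midline barrier in the nervous system, with lower values on every CAF array. It was at 5.69, 5.18 and 5.41 in NDF and at 4.54, 3.90 and 4.45 in CAF. The difference was -1.13 ± 0.25 (SE), with an interval of -1.71 to -0.54 (limma adjusted p = 0.154), on a single probe set. Leaving out any 1 array gave differences of -1.25 to -0.93. The CAF mean of 4.30 lay under the median probe set. Efnb1 was at 9.18, 9.32 and 9.08 in NDF and at 8.62, 8.64 and 9.18 in CAF (-0.38, limma adjusted p = 0.714), and its other probe sets differed by 0.09 and -0.01.

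Efnb2, the arterial ligand of EphB4, was variable in both groups, at 9.03, 9.39 and 7.99 in NDF and at 8.52, 8.47 and 10.28 in CAF. Its difference of 0.29 had an interval of -1.09 to 1.67 and was -0.31 without CAF replicate 3. Of the ephrin A genes, which encode lipid-anchored ligands, Efna2 was at 10.02, 9.75 and 9.89 in NDF and at 9.27, 9.17 and 9.90 in CAF (-0.44, limma adjusted p = 0.700). Without CAF replicate 3 the difference was -0.67. Its second probe set gave -0.96 with no overlap between groups. Efna3 was at -0.36 (limma adjusted p = 0.834; -0.07 without CAF replicate 2) and Efna1, Efna4 and Efna5 lay between 0.01 and 0.18.

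The Eph receptors had differences of -0.54 to 0.65. Ephb3, a receptor of B-type ephrins, was at 5.82, 6.20 and 5.99 in NDF and at 5.72, 5.23 and 5.48 in CAF, the 1 Eph receptor without overlap between groups (-0.53 ± 0.21, SE, limma adjusted p = 0.516). Epha4, which binds ephrins of both types, was at 9.93, 9.16 and 9.49 in NDF and at 9.30, 8.69 and 8.98 in CAF (-0.54, limma adjusted p = 0.649). Ephb4, the venous partner of Efnb2, was at 6.15, 7.17 and 6.92 in NDF and at 6.85, 7.09 and 7.97 in CAF (0.56, limma adjusted p = 0.794). Its difference was 0.23 without CAF replicate 3 and 0.26 without NDF replicate 1. Epha7 differed by -0.31 (limma adjusted p = 0.758), with 3 other probe sets at a median of 0.12. Epha3 was at 11.05 to 11.27 in NDF and at 10.21 to 11.13 in CAF (-0.35), and its second bright probe set differed by -0.49. Epha2, an Eph receptor of keratinocytes, was at 4.47 to 4.79 in NDF and 4.77 to 4.95 in CAF, with an interval of -0.27 to 0.59. Its single probe set was dim, with means of 4.68 in NDF and 4.84 in CAF where the median probe set was at 4.84. On the same arrays the median difference of 21 keratinocyte genes was 1.37, and 16 of them did not overlap between groups. Ephb6, a kinase-dead member, had 1 high array, CAF replicate 3 at 6.39, and differed by 0.65 with it and 0.13 without it.

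Of 30 partners of ephrins and Eph receptors 0 passed the limma test (0.517% of all genes), and 0 had an unadjusted p under 0.05 (8.95% of all genes). The median over these partners was -0.07. The smallest p values belonged to the metalloprotease gene Adam12, the Rac activator gene Tiam1 and the kinase gene Abl1, at -1.46, 0.44 and -0.39 (limma adjusted p = 0.602, 0.631 and 0.673). Adam12 varied from 8.57 to 11.32 within NDF and differed by -0.76 without NDF replicate 1. Adam10, a protease that sheds ephrins, differed by 0.28 (limma adjusted p = 0.797).

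Of 26 slit, netrin and RGM pathway genes 0 passed the limma test, and the median was -0.04. Without adjustment, p was under 0.05 for 2 with higher and 1 with lower values, beside 4.93% and 4.02% of all genes. Robo4, a slit receptor family member of endothelium, was at 4.10, 4.01 and 4.01 in NDF and at 5.21, 6.19 and 5.29 in CAF (1.53 ± 0.29, SE, limma adjusted p = 0.107). It was highest on CAF replicate 2, as were the mean levels of the endothelial, neutrophil, mast cell and pericyte lists. The part of such cells in the Robo4 difference was not tested. Neo1, the receptor of netrins and RGM proteins, was at 10.82, 11.01 and 11.14 in NDF and at 10.24, 10.34 and 9.65 in CAF (-0.91 ± 0.24, SE, limma adjusted p = 0.240). Slit2 was at 10.56, 10.90 and 10.79 in NDF and at 11.56, 11.11 and 11.15 in CAF (0.52, limma adjusted p = 0.517).

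Several members rest on more than 1 probe set, and these did not always give the same picture. Of the 51 genes 34 had several probe sets and 17 had 1, and for 11 members both group means lay under the median probe set. Of the 116 probe sets 52 were that dim. Both Sema4a probe sets and both Sema3c probe sets had differences of 1 sign, whereas for Sema4d only the brightest of 3 differed by more than 0.1.

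**Figure D5:**
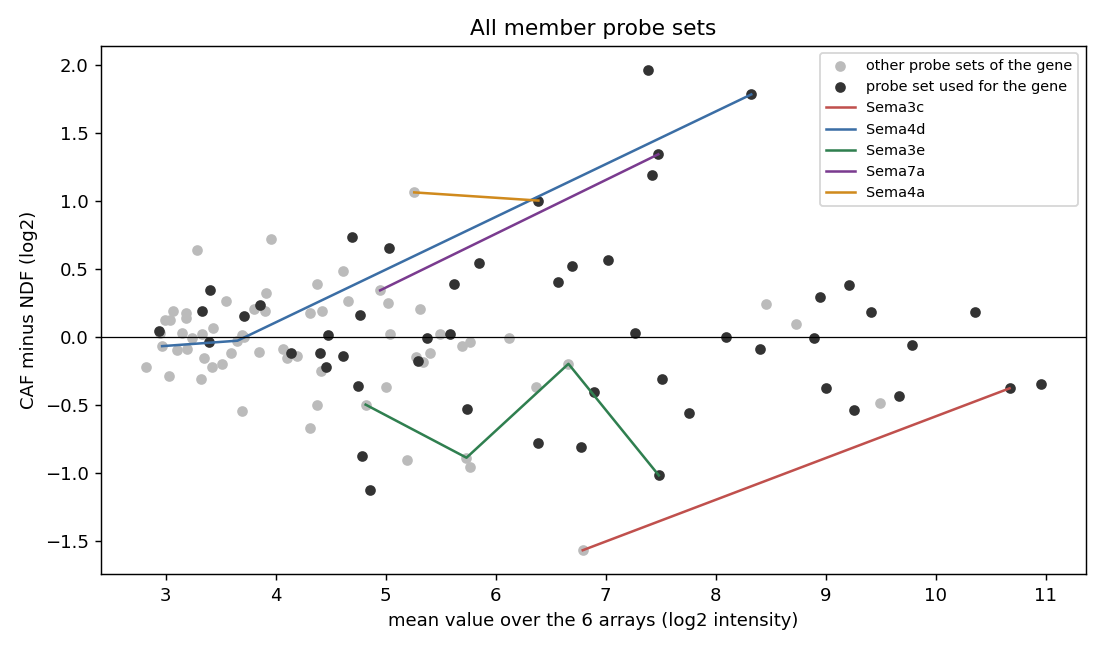
Each point is 1 of the 116 member probe sets, with its mean log2 intensity over the 6 arrays on the x axis and its difference of CAF minus NDF on the y axis. Dark points are the probe sets used for a gene, grey points the others, and coloured lines join the probe sets of 5 genes. The largest differences lie above a mean of 6, at 1.96 for Sema3g and at -1.57 for the second probe set of Sema3c, and the blue line falls from 1.78 to near 0 for Sema4d.

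The promoters of 44 members matched RefSeq windows of 300 bases, from 250 before to 50 after a transcript start (build GRCm38.p6, 58 windows). They were searched on both strands for the NF-κB motif, since the study's title names that factor, and for the AP-1 motif TGANTCA, whose letters are the same on both strands. The motifs do not overlap in letters. An NF-κB match was held by 7 of 58 member windows (12.1%) and by 8.46% of all 32851 windows. The members with a match were Efna2, Ephb1, Plxna3, Sema4a, Sema4b, Sema4c and Sema6c. An AP-1 match was held by 3 of the 58 windows (5.17%) and by 7.81% of all windows, and the members were Sema4c, Sema4d and Sema6b. Shown are the 250 bases before the start for the 3 semaphorin genes with the smallest p values, in the gene's direction, from chr14:31217623-31217872 (plus strand) for Sema3g, chr13:51748811-51749060 (minus strand, 1 of 3 windows) for Sema4d and chr17:56133853-56134102 (minus strand, 1 of 2 windows) for Sema6b. The windows shown for Sema4d and Sema6b were picked because they hold an AP-1 match, and the other windows of these 2 genes hold none. Capitals mark letters that match the pattern TGANTCA, in which N was allowed to be any base. They are TGAATCA, with A as N, at 239 to 233 bases before the start of Sema4d and TGAGTCA, with G as N, at 48 to 42 bases before that of Sema6b. The search did not separate these centre bases, so an AP-1 match here means this loose pattern only. The Sema3g window holds neither motif, which says only that these letters are not in it.
Sema3g: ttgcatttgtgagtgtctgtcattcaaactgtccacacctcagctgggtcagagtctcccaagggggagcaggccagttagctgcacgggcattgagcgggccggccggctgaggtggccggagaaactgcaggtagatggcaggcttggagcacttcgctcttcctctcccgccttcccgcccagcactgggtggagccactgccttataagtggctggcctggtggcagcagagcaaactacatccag
Sema4d: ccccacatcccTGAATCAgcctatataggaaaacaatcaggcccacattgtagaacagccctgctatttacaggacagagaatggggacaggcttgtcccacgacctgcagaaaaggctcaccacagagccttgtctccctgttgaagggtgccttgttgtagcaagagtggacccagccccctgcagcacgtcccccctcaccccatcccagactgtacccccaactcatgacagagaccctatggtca
Sema6b: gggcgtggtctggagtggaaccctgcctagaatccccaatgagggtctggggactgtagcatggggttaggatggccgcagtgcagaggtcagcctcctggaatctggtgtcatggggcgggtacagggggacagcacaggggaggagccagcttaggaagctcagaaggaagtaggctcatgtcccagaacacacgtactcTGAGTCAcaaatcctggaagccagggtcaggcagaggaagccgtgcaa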

How the data were processed

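Gene expression of 3 NDF and 3 CAF samples was measured on Affymetrix mouse expression arrays. Per the labels' protocols, 1 round of WT-Ovation amplification preceded biotin labelling. The deposited values are log2 intensities, and GCOS and RMA are named in the submitters' processing notes; their versions are not given here. RMA normalises arrays to each other and compresses low values. Scanner files were not used here.

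Of 45101 probe sets 34945 name 1 gene in the platform annotation. A gene was represented by its probe set with the highest mean, giving 18193 genes with no filter. Groups were compared with limma 3.58.1 (R 4.3.3; lmFit and eBayes, two-sided, group as the only term), with Benjamini-Hochberg adjustment over all genes and a threshold of 0.05. The script was tested on simulated data. Precision is limited by having 3 arrays per group.

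The members, gene lists and alternatives were chosen with earlier results of these data known. Named were members past the threshold, up to 8 each way without overlap by size, the 2 smallest p values per family and 3 per partner list. Others, and values of other genes, were named after their values were seen. Alternatives changed the normalisation, filter, probe set choice, prior, weights, block, threshold and arrays used. The result of 1 further gene list is not reported here.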

Additional observations from a re-analysis of the deposited data

How the results depend on the processing

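With 3 arrays a group, only large differences can pass the test, and dim probe sets carry little signal above the floor. The count of members called higher was 0 and became 1 (Sema3g) with a filter at the median or at the 25th percentile, with probe sets averaged per gene, without _x_ or _s_ probe sets, with an intensity trend, with array quality weights and at an adjusted p under 0.1. With 1 array left out it was 0 to 1, the 1 being Sema4d without CAF replicate 1. The count of members called lower was 0 in each alternative. For member probe sets the higher count became 1 (Sema3g) with array quality weights and at an adjusted p under 0.1, and was 0 to 0 with 1 array left out.

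The median difference of ligands was -0.17 with array quality weights and -0.18 with CAF replicate 3 and NDF replicate 1 both left out, and -0.31 to 0.06 with 1 array left out, the lowest without CAF replicate 3. The count of pathway partners called was 1 (Rnd1), 2 with array quality weights (Rnd1 and Robo4), 0 with the replicate block, 0 with CAF replicate 3 and NDF replicate 1 both left out, and 0 to 1 with 1 array left out. Deviations of samples with the same replicate number correlated at -0.153, 0.108 and -0.0132. With so few arrays these values cannot decide whether samples of the same number were paired, and the labels do not say. With the replicate block Rnd1 had an adjusted p of 0.0625 and Sema3g of 0.08, and 0 members were called. The cause of these changes was not tested.

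Of 38 genes taken by the naming rule 33 kept their sign in each alternative that was run. Epha7 turned from -0.31 to 0.00 with probe sets averaged per gene. Ephb4 and Plxnb1 were at -0.07 and -0.08 with CAF replicate 3 and NDF replicate 1 both left out. Plxna2 was at 0.10 with array quality weights, 0.12 without CAF replicate 3 and 0.29 with both arrays left out, and ran from -0.83 to 0.12 with 1 array left out. Plxna4 was at 0.07 with array quality weights and 0.02 without NDF replicate 2, and ran from -0.26 to 0.02 with 1 array left out. Over all genes 94 were called, 20 with the replicate block, 155 with an intensity trend, 438 with array quality weights and 5 to 156 with 1 array left out.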
